A study of Mus musculus with 6 samples.

Results

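The genes described here encode the proteins of the mitochondrial ribosome, chosen by symbol as the entries starting with Mrpl or Mrps and a digit, without pseudogenes. There were 77 of them among the 23282 gene entries of the files, 48 named for the large subunit (Mrpl) and 29 for the small subunit (Mrps). Counts of these genes were compared between regulatory T cells (Treg) labelled IPMK cKO and wild type Treg, with 3 libraries per group. Treg are CD4 T cells that hold immune responses in check, and IPMK, inositol polyphosphate multikinase, adds phosphates to inositol phosphates and phosphoinositides. Both groups were sorted from the spleen of C57BL/6 mice and were not stimulated before RNA extraction. They differed by genotype alone, as far as the labels say. The labels do not give the Cre driver, the deleted part of Ipmk, or the age of the mice. They call the libraries biological replicates without tying them to separate animals, so p-values measure the spread between these libraries, which may be partly technical.

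The mitochondrial ribosome translates the few messages of the mitochondrial genome, which encode core subunits of the respiratory chain and of the ATP synthase. Its ribosomal RNAs are made inside the mitochondrion, whereas its proteins are encoded in the nucleus, made in the cytosol and imported. Some of these proteins have a bacterial counterpart, and others are found in mitochondrial ribosomes without one. In T cells, mitochondrial translation supports the oxidative metabolism on which activation and Treg function draw.

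Total counts were 8363324 to 8980395 in IPMK cKO libraries and 7464546 to 8246993 in wild type libraries. Ipmk had 3, 21 and 0 counts in IPMK cKO replicates 1 to 3, against 129, 77 and 99 counts in wild type replicates 1 to 3. Even so, edgeR's quasi-likelihood test did not call Ipmk (log2 fold change −3.51, SE 1.75, unadjusted p = 0.0705, adjusted p = 0.9999). The 8 Treg markers found in the files summed to 2359 to 2795 CPM (counts scaled to a common library size) in IPMK cKO and 2417 to 3322 CPM in wild type, and none of them was at 0 in any library. Foxp3, the transcription factor of the lineage, had 85.1, 72.0 and 82.3 CPM in IPMK cKO, against 10.3, 80.6 and 29 CPM in wild type. Over the 8 markers, 3 estimates of the log2 fold change of IPMK cKO over wild type were above 0 and 5 below (median −0.14). The summed markers of B cells were 11.8 to 14.2 CPM in IPMK cKO and 9.43 to 26.2 CPM in wild type. Those of myeloid cells were 0 to 14.2 CPM in IPMK cKO and 0.602 to 8.20 CPM in wild type, and those of CD8 T and NK cells 34.1 to 76.4 CPM against 31.8 to 42.5 CPM. Libraries here are bulk samples, in which fewer cells of a type and less RNA per cell cannot be told apart. Of the 6 markers of CD8 T and NK cells, 2 to 3 were at 0 in each IPMK cKO library and 3 in each wild type library, among them Cd8a and Ncr1 in all 6. Eomes of this list had 22.5, 11.8 and 15.0 CPM in IPMK cKO, against 0, 1.91 and 3.85 CPM in wild type. Its IPMK cKO libraries lay wholly above wild type, as did those of 4.74% of all genes tested. Of the 3 genes of this list that were tested, 2 estimates were above 0 and 1 below, at −0.84 (median +0.34). Erythroid markers summed to 0 to 19.3 CPM in IPMK cKO and 0.120 to 60.4 CPM in wild type. Markers of stroma and endothelium summed to 45.7 to 92.3 CPM in IPMK cKO and 36.1 to 73.4 CPM in wild type. Of these 5 genes, 2 to 4 were at 0 in each IPMK cKO library and 1 to 4 in each wild type library. The part of all these marker sets in the results below was not tested. IPMK cKO replicate 1 stood apart, with 22.3% of all genes tested over 4-fold below the median of the other libraries, against 3.01% to 13.2% in the other 5 libraries.

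Every one of the 77 genes had counts, and all 77 passed the filter on low counts. A count was found for 76 of them in IPMK cKO replicate 1 and for 77 in each other library. The gene without a count there was Mrps28, a small subunit gene mutated in a human mitochondrial disease. Its 0 allows up to 0.422 CPM in that library (3 counts, counting error only). Levels are given as CPM of tags from the 3′ end of transcripts, which were not divided by transcript length because the kit reads the transcript end. Mean levels over the 6 libraries ran from 4.90 to 120 CPM in the large subunit, with a median of 26.7 CPM, and from 4.74 to 131 CPM in the small subunit, with a median of 24.1 CPM.

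Among the large subunit genes the highest tag levels were those of Mrpl24, Mrpl52, Mrpl18 and Mrpl34. Mrpl24, whose bacterial counterpart lies beside the exit of the nascent peptide, had 188, 127 and 105 CPM in IPMK cKO replicates 1 to 3, against 75.3, 98.7 and 128 CPM in wild type replicates 1 to 3. The groups overlapped, and the log2 fold change of IPMK cKO over wild type was +0.47 (SE 0.34). Mrpl52, a mitochondria-specific protein, had 123, 73.8 and 95.9 CPM in IPMK cKO, against 90.1, 75.4 and 85.5 CPM in wild type. Mrpl18 had 122, 85.7 and 55.6 CPM in IPMK cKO, against 70.7, 91.6 and 77.2 CPM in wild type. Mrpl34 had 143, 47.6 and 54.0 CPM in IPMK cKO, against 75.4, 63.0 and 96.8 CPM in wild type. In all 4 genes IPMK cKO replicate 1 held the highest value of the 6 libraries. Log2 fold changes were +0.22 (SE 0.33) for Mrpl52, +0.13 (SE 0.37) for Mrpl18 and +0.05 (SE 0.45) for Mrpl34.

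Of the small subunit genes, Mrps25, Mrps23, Mrps21 and Mrps15 had the highest tag levels. Mrps25, which has no bacterial counterpart and is mutated in a human mitochondrial disease, had 162, 111 and 106 CPM in IPMK cKO, against 128, 123 and 157 CPM in wild type. Its ratio of highest to lowest library was 1.53, the second smallest among the 77 genes after the 1.38 of Mrpl38, a protein of the central protuberance. Mrps23 had 183, 40.1 and 76.7 CPM in IPMK cKO, against 63.0, 45.1 and 56.7 CPM in wild type (log2 fold change +0.86, SE 0.50). A single IPMK cKO library was thus far above the rest, and another was below all wild type libraries; without IPMK cKO replicate 1 the estimate was +0.083. Mrps15, the counterpart of bacterial S15, had 70.2, 71.6 and 47.8 CPM in IPMK cKO, against 48.6, 55.6 and 14.6 CPM in wild type (+0.68, SE 0.51). Mrps25 and Mrpl24, the most abundant of each subunit, both have another coding gene on the opposite strand over their 3′ end (Nr2c2 and Rrnad1). In all, 12 of the 77 genes have a coding gene on either strand over their 3′ end. The counting is not stated to use strand, so tags of such pairs cannot be told apart.

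**Figure D1:**
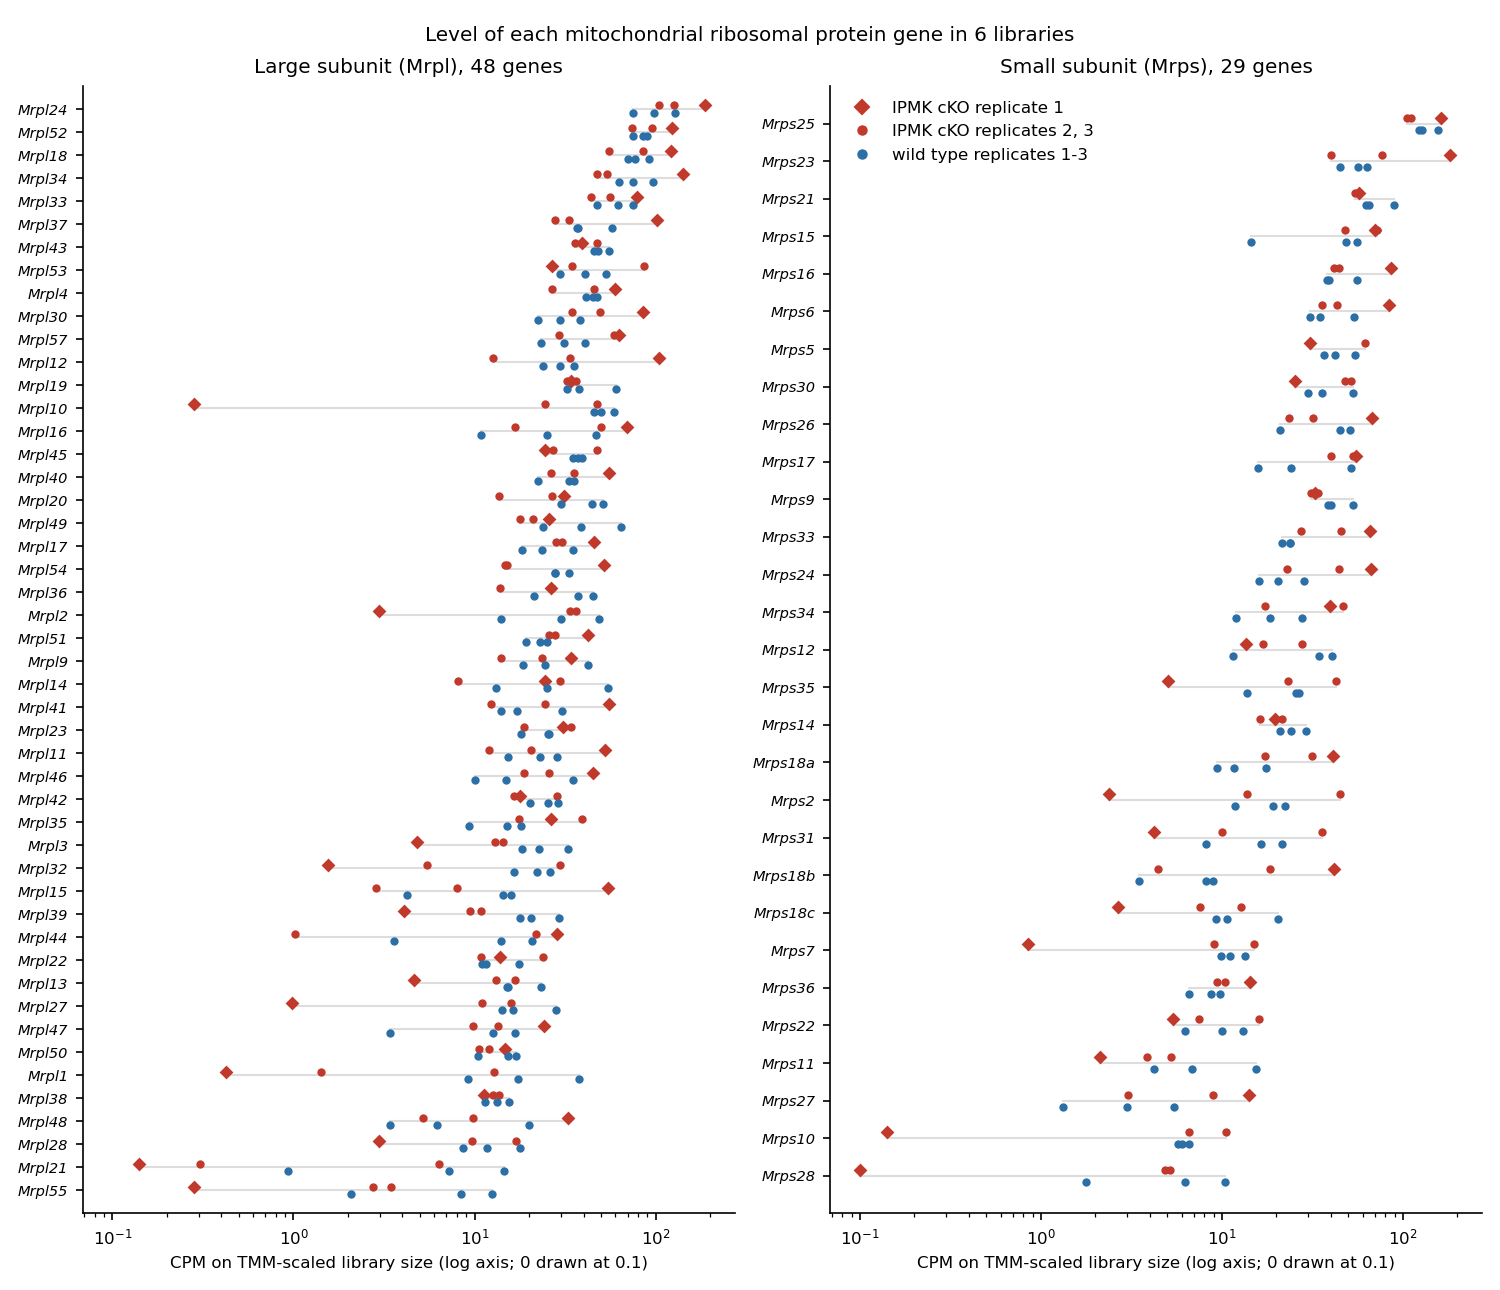
CPM (log axis) of each of the 77 genes in the 6 libraries, the large subunit on the left and the small subunit on the right, ordered by mean level. Red marks are IPMK cKO, with diamonds for replicate 1, and blue marks are wild type; some diamonds lie far left of the other marks, as for Mrpl10 at 0.281 CPM and Mrps28, drawn at the left edge for its 0.

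None of the 77 genes was called higher or lower in IPMK cKO by edgeR's quasi-likelihood test, with an adjusted p of 0.9999 for each over 10475 genes tested. The background was 0% called among all genes tested. DESeq2 and limma-voom also called 0 of the 77, against 0.0288% and 0% of all genes. At an unadjusted p under 0.05 there were 0 of 77 genes by edgeR, against 1.37% of all genes tested higher and 1.19% lower. Estimates lay above 0 for 40 of the 77 (51.9%, against 51.8% of all genes tested) and below 0 for 37. For 76 of the 77 the estimate was within 2 SE of 0, and the median SE was 0.64 on the log2 scale. A p that misses the threshold does not show equal levels.

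**Figure D2:**
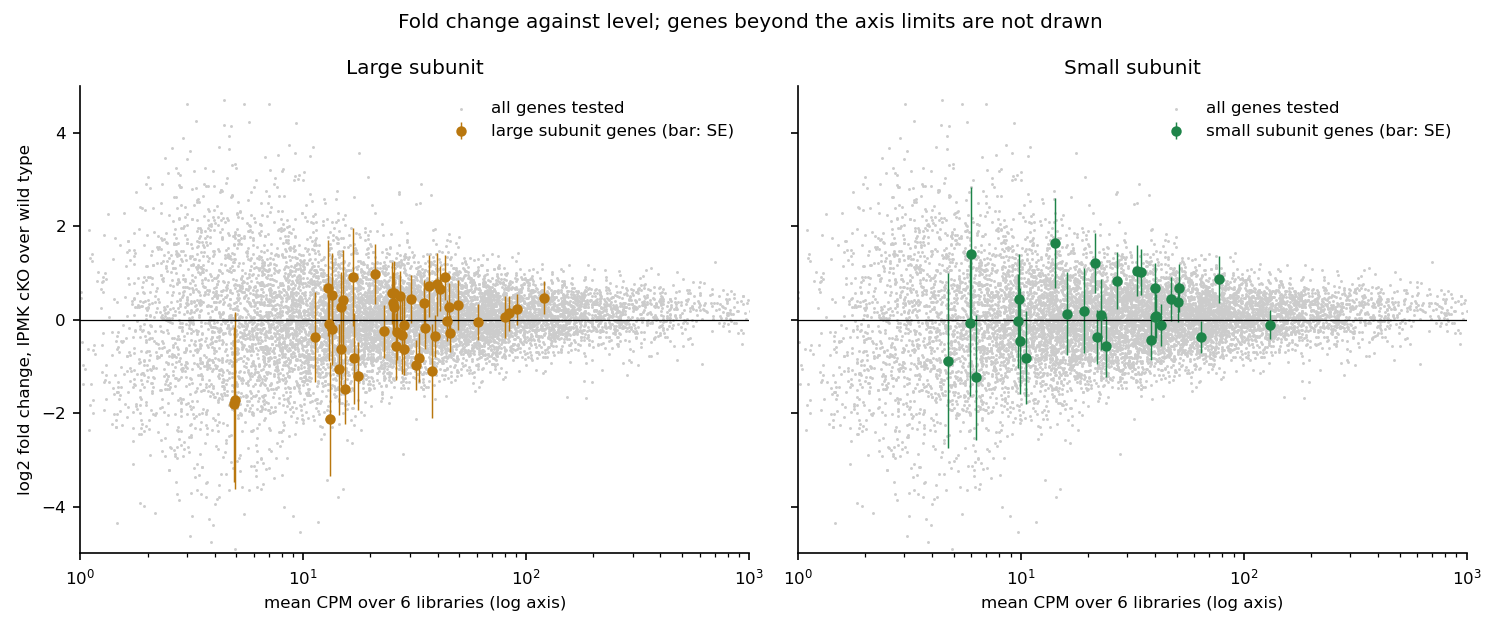
Log2 fold change of IPMK cKO over wild type against mean CPM (log axis), with large subunit genes in orange and small subunit genes in green over all genes tested in grey; bars are SE. The coloured points lie on both sides of 0, with 23 above and 25 below for the large subunit and 17 above and 12 below for the small subunit, and their bars lengthen toward low levels.

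The medians of the subunits were near that of all genes tested, +0.03. For the 48 large subunit genes the middle log2 fold change was −0.03 (23 estimates above 0 and 25 below, range −2.13 to +0.98). For the 29 small subunit genes it was +0.11 (17 above and 12 below, range −1.24 to +1.64). A single library decided the sign of each median. The large subunit's median was −0.28 when IPMK cKO replicate 1 was left out, +0.12 when IPMK cKO replicate 2 was, and +0.04 when wild type replicate 1 or 3 was. The small subunit's median was −0.01 without wild type replicate 2. Within each subunit the genes were split by whether the protein has a bacterial counterpart. In the large subunit the median was −0.15 for 30 genes with a counterpart (13 above 0, 17 below) and +0.24 for 18 without (10 above, 8 below). In the small subunit it was −0.24 for 16 genes with a counterpart (6 above, 10 below) and +0.13 for 9 without (7 above, 2 below). The other 4 genes, Mrps18a, Mrps18b, Mrps30 and Mrps36, were in neither list, and their estimates were all above 0. Without IPMK cKO replicate 1 the medians of the large subunit were −0.33 with a counterpart and −0.16 without, and those of the small subunit −0.03 and +0.58. Without both libraries numbered 1 the small subunit genes with a counterpart had a median of +0.198 (10 above, 6 below). With limma-voom the medians of genes without a counterpart were −0.0148 in the large subunit and −0.0862 in the small subunit. These splits are counts of estimates that did not pass singly, and no difference between them was tested.

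Summed over its genes, each subunit took an overlapping share of the counts in both groups, where counts of the ribosomal RNA precursor Rn45s were left out of the total. Large subunit genes held 0.234%, 0.175% and 0.190% in IPMK cKO replicates 1 to 3, against 0.238%, 0.190% and 0.209% in wild type replicates 1 to 3. Small subunit genes held 0.137%, 0.112% and 0.134% in IPMK cKO, against 0.128%, 0.109% and 0.117% in wild type. Means were 0.200% ± 0.0306 in IPMK cKO and 0.212% ± 0.0244 in wild type for the large subunit (SD, n = 3 each). For the small subunit they were 0.128% ± 0.0137 in IPMK cKO and 0.118% ± 0.00980 in wild type (SD, n = 3 each). In both groups replicate 1 was the highest and replicate 2 the lowest for either subunit. The counts behind these shares were 16275 to 23102 per library in IPMK cKO and 15790 to 22386 per library in wild type for both subunits together.

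The ratio of large to small subunit counts, which needs no library size, did not overlap between the groups. It was 1.70, 1.56 and 1.42 in IPMK cKO replicates 1 to 3, against 1.86, 1.75 and 1.78 in wild type replicates 1 to 3. Its mean was 1.56 ± 0.141 in IPMK cKO and 1.80 ± 0.0574 in wild type (SD, n = 3 each). Since a score over these genes was examined with earlier results known, no p is given for it. With Mrps18a and Mrps30 counted in the large subunit, where human structures place their proteins, and with Mrps36 left out, the mean ratio was 1.78 in IPMK cKO and 2.0 in wild type, again without overlap. When each gene had equal weight, the groups overlapped: the mean log2 level of the large minus the small subunit, relative to wild type, was −0.04, −0.38 and −0.60 in IPMK cKO, against 0.12, −0.02 and −0.11 in wild type. In summed CPM the small subunit stood at 997 in IPMK cKO and 844 in wild type, and the large subunit at 1567 in IPMK cKO and 1518 in wild type. IPMK cKO replicate 1 decided the direction for the large subunit alone. Without that library the IPMK cKO mean was 1336 CPM for the large subunit, below wild type. For the small subunit it was 900 CPM, still above wild type. The largest differences of mean CPM, IPMK cKO minus wild type, within the small subunit were those of Mrps23 (+44.8), Mrps15 (+23.6), Mrps33 (+23.3) and Mrps24 (+23.1). These 4 genes were picked for that difference, which is therefore a description. Without IPMK cKO replicate 1 the differences were +3.47 for Mrps23, +20.1 for Mrps15, +13.6 for Mrps33 and +11.9 for Mrps24.

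**Figure D3:**
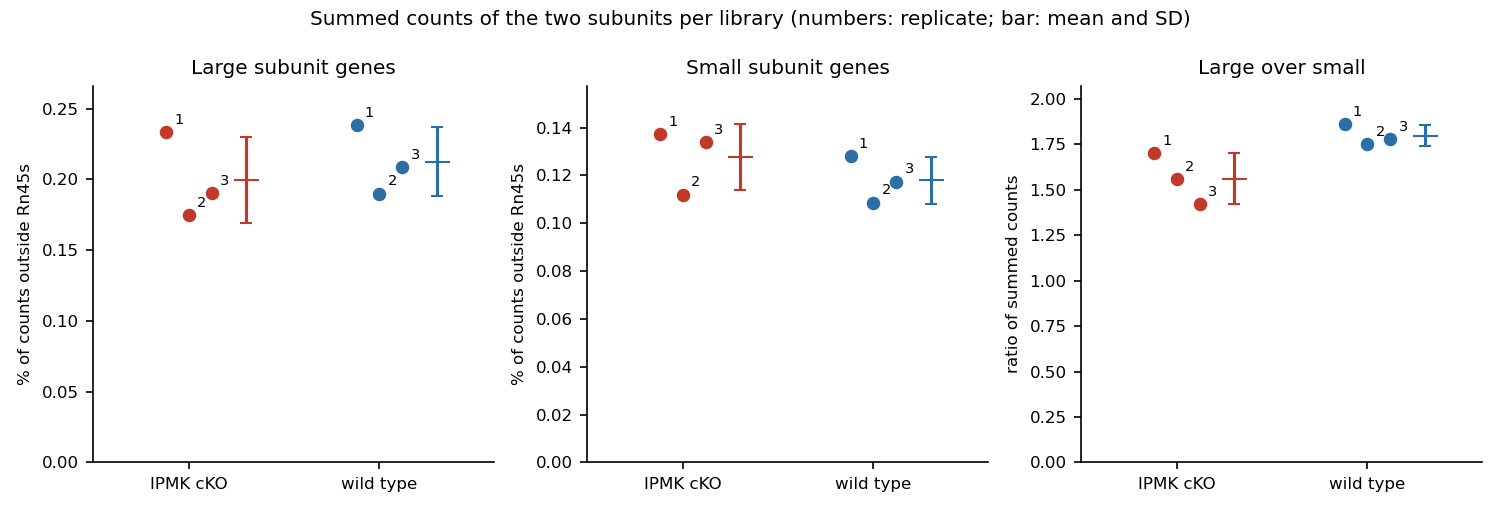
Share of counts outside Rn45s held by large subunit genes (left) and small subunit genes (middle), in percent, and the ratio of their summed counts (right), one numbered point per library with the mean and SD beside it. The 3 IPMK cKO libraries have ratios of 1.42 to 1.70, below the 1.75 to 1.86 of wild type, while the shares overlap.

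For 6 of the 77 genes the IPMK cKO libraries lay wholly above or below the wild type libraries. There were 2 higher (2.60%, against 4.74% of all genes tested) and 4 lower (5.19%, against 5.66% of all genes tested), so neither share was above its background. None of the 6 was called, and the exact permutation test of a single gene cannot give a p under 0.1 with 3 against 3 libraries. Mrps33, a small subunit protein of the head without a bacterial counterpart, had 65.7, 27.4 and 45.8 CPM in IPMK cKO, against 21.4, 23.6 and 23.8 CPM in wild type. All 3 IPMK cKO libraries were above all 3 wild type libraries, replicate 2 by little (log2 fold change +1.01, SE 0.49, unadjusted p = 0.0645 by edgeR, the smallest p of the 77). Mrpl51, a mitochondria-specific large subunit protein, had 42.4, 27.7 and 25.9 CPM in IPMK cKO, against 19.3, 25 and 23.0 CPM in wild type (+0.51, SE 0.52).

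The 4 genes that were lower in each IPMK cKO library included Mrpl39, a large subunit protein that has no bacterial counterpart. It had 4.08, 9.41 and 10.9 CPM in IPMK cKO, against 17.8, 20.6 and 29.4 CPM in wild type. Its mean was 8.12 ± 3.57 CPM in IPMK cKO and 22.6 ± 6.06 CPM in wild type (SD, n = 3 each), with a log2 fold change of −1.48 (SE 0.76, edgeR unadjusted p = 0.0784, adjusted p = 0.9999). Mrpl3, the counterpart of bacterial L3 and a gene of human mitochondrial disease, had 4.78, 12.9 and 14.4 CPM in IPMK cKO, against 18.3, 22.8 and 32.8 CPM in wild type (−1.20, SE 0.72). In both genes IPMK cKO replicate 1 was lowest, and replicates 2 and 3 were below each wild type library as well. Mrps9, the counterpart of bacterial S9, had 32.5, 34.1 and 31.1 CPM in IPMK cKO, against 38.4, 53.3 and 39.8 CPM in wild type (−0.43, SE 0.43). Mrps21, the counterpart of bacterial S21, had 57.6, 56.3 and 54.7 CPM in IPMK cKO, against 62.7, 65.3 and 89.8 CPM in wild type (−0.37, SE 0.35). The IPMK cKO values of Mrps9 and Mrps21 lay close together, with SDs of 1.52 and 1.43 CPM (n = 3 each). Over the alternative settings tried, the log2 fold change ran from +0.63 to +1.25 for Mrps33, from −1.74 to −1.16 for Mrpl39 and from −1.47 to −0.85 for Mrpl3. It ran from +0.16 to +0.64 for Mrpl51, from −0.61 to −0.28 for Mrps9 and from −0.58 to −0.19 for Mrps21.

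**Figure D4:**
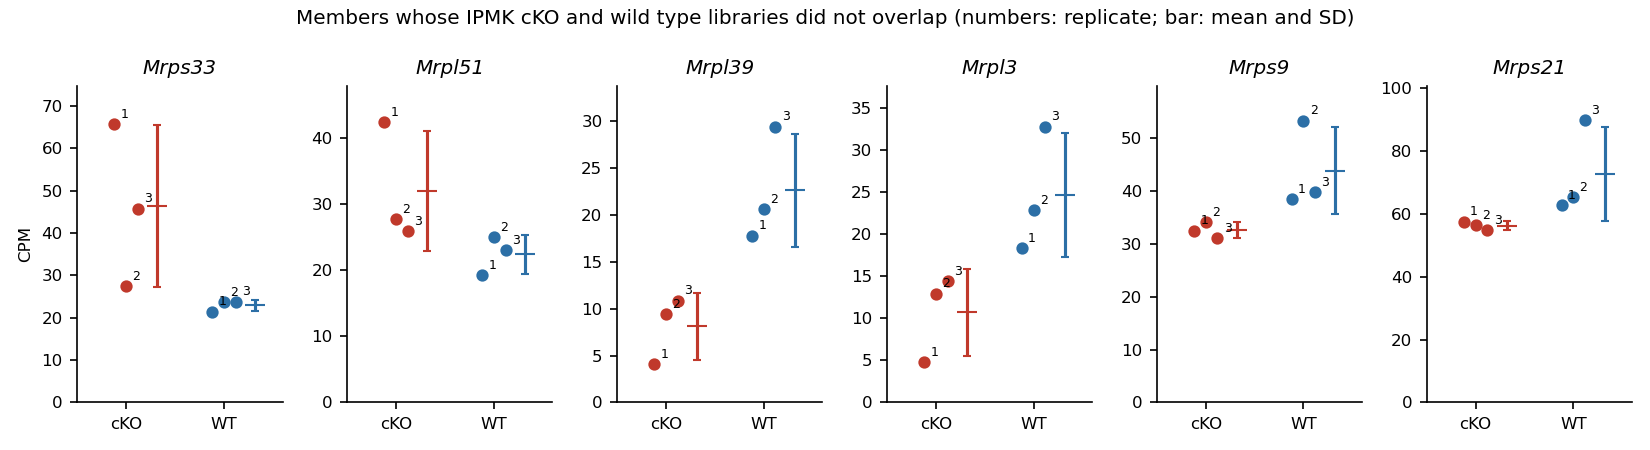
CPM per library of the 6 genes whose groups did not overlap, with numbered points for replicates and the mean and SD beside them. Mrps33 and Mrpl51 have their IPMK cKO libraries above wild type, and Mrpl39, Mrpl3, Mrps9 and Mrps21 have them below.

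The promoters of these 6 genes are shown because theirs are the levels that did not overlap between the groups. Each runs from 130 bases before the RefSeq transcript start through 25 bases from it, on the gene's own strand of GRCm38.p6, the assembly known as mm10. Capitals mark GCGC, any base and TGCGC, the core of the site of nuclear respiratory factor 1 (NRF1), CCGGAAG, the core of the site of ETS factors such as the GA-binding protein, or AAGATGGCG, the core of a YY1 site, on either strand. These factors are known regulators of nuclear genes for mitochondrial proteins. The window of Mrps33 is at chr6:39810912-39811066 (minus strand), that of Mrpl51 at chr6:125192070-125192224 (plus), that of Mrpl39 at chr16:84735220-84735374 (minus), that of Mrpl3 at chr9:105053138-105053292 (plus), that of Mrps9 at chr1:42851103-42851257 (plus) and that of Mrps21 at chr3:95871490-95871644 (minus).
Mrps33: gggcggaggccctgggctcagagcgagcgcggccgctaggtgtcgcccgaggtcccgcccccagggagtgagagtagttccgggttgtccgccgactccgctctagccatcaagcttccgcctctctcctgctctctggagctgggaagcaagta
Mrpl51: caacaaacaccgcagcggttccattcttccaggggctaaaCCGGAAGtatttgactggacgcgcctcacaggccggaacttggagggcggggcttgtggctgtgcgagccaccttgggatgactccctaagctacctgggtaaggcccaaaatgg
Mrpl39: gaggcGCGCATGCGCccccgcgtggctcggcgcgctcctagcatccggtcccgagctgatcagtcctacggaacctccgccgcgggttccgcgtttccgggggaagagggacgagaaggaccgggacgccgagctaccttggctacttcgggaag
Mrpl3: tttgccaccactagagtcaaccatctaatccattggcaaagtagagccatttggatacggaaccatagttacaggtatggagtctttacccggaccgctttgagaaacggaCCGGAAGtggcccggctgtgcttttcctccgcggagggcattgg
Mrps9: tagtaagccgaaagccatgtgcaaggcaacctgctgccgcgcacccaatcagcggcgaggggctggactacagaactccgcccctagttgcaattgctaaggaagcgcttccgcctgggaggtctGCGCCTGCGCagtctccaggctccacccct
Mrps21: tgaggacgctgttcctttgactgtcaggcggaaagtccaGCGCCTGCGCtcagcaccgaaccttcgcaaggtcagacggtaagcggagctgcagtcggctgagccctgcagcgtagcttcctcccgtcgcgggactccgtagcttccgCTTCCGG
An NRF1 core stood in the windows of Mrpl39, Mrps9 and Mrps21, starting 125, 5 and 91 bases before the start. An ETS core stood in those of Mrpl51, Mrpl3 and, in reverse, Mrps21. Both kinds of match thus occurred among the lower genes, and an ETS match also in the higher gene Mrpl51. The higher gene Mrps33 has an ETS core in reverse 38 bases after the start. It lies beyond the printed stretch but within the wider windows counted below. A match is a description of letters, and it does not show that a factor binds there.

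Over the family, RefSeq promoter windows of 250 bases before to 50 after the start were found for 68 of the 77 genes, in 74 windows. The NRF1 core was in 17.6% of them (10 large and 3 small subunit genes), against 4.60% of all 32851 windows. The ETS core CCGGAAG was in 33.8% (14 large and 11 small subunit genes), against 8.86% of all windows, and AAGATGGCG was in 10.8%, against 1.40%. CCAAT was in 40.5%, against 37.4%, and TATAAA in 6.76%, against 13.6%. Matches on both strands were counted, and a window could hold more than one motif. The windows of these genes were richer in G and C, with a median of 58.5% against 52.7% for all windows, and the part of base composition in these shares was not tested.

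The 77 genes were spread over 17 chromosomes in GENCODE M21 on mm10. For 33 of them (42.9%) another coding gene on the opposite strand started within 1000 bases of the gene's start, against 10.9% of 21951 coding genes. A pair of the family, Mrpl46 and Mrps11 on chromosome 7, start head to head with starts 412 bases apart, and overlap at their starts. Mrpl46 had 45.2, 18.7 and 25.9 CPM in IPMK cKO, against 35.1, 14.9 and 10.1 CPM in wild type (log2 fold change +0.58, SE 0.66). Mrps11 had 2.11, 5.23 and 3.86 CPM in IPMK cKO, against 4.21, 6.83 and 15.4 CPM in wild type (−1.24, SE 1.34). The estimates of this head to head pair had opposite signs, each within 1 SE of 0.

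The stalk of the large subunit brings translation factors to the ribosome. Mrpl12, the counterpart of the bacterial stalk protein and in human cells also a reported partner of the mitochondrial RNA polymerase, had 104, 33.8 and 12.6 CPM in IPMK cKO, against 29.7, 23.8 and 35.4 CPM in wild type. IPMK cKO thus held both the highest and the lowest library (+0.76, SE 0.67). Mrpl10, which anchors the copies of Mrpl12, had 2, 188 and 465 counts in IPMK cKO replicates 1 to 3, against 379, 429 and 479 counts in wild type replicates 1 to 3. In CPM these were 0.281, 24.6 and 47.2 in IPMK cKO, against 45.6, 58.6 and 49.8 in wild type. Its log2 fold change of −1.09 (SE 1.01) came with 2 counts in IPMK cKO replicate 1, while IPMK cKO replicate 2 lay below the wild type range and replicate 3 within it. Mrpl11, at the base of the stalk, had 52.9, 12 and 20.5 CPM in IPMK cKO, against 23.0, 15.3 and 28.4 CPM in wild type (+0.36, SE 0.66). With Mrpl53 and Mrpl54, listed with the stalk here, 3 of 5 estimates were above 0 and 2 below (median +0.26). Without IPMK cKO replicate 1 there was 1 above and 4 below (median −0.46), with Mrpl10 at −0.52.

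Around the exit of the nascent peptide, Mrpl45 holds the ribosome to the inner membrane. It had 24.6, 47.6 and 27.2 CPM in IPMK cKO, against 37.2, 35.0 and 39.4 CPM in wild type (−0.17, SE 0.47). The other 5 genes of this group, Mrpl17, Mrpl22, Mrpl23, Mrpl24 and Mrpl47, had estimates of +0.28 to +0.54, and none passed. Mrpl44, a large subunit protein with an RNase III-like fold, had 28.4, 21.9 and 1.01 CPM in IPMK cKO, against 3.61, 14.1 and 20.9 CPM in wild type (+0.41, SE 1.09). Its lowest library was IPMK cKO replicate 3 and not replicate 1.

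In the small subunit, Mrps12 lies at the decoding centre. It had 13.6, 27.8 and 16.8 CPM in IPMK cKO, against 40.5, 11.5 and 34.2 CPM in wild type (−0.56, SE 0.65). Mrps27, a protein with pentatricopeptide repeats, had 14.1, 8.88 and 3.04 CPM in IPMK cKO, against 1.32, 3.01 and 5.41 CPM in wild type (+1.41, SE 1.42). The 8 genes of the small subunit head split evenly, 4 above 0 and 4 below (median +0.02). With limma-voom there were 2 above and 6 below (median −0.25), and without IPMK cKO replicate 1 6 above and 2 below (median +0.53). Mrps24, the counterpart of bacterial S3 in the head, had 67.0, 44.2 and 22.9 CPM in IPMK cKO, against 20.3, 28.6 and 16 CPM in wild type (+1.05, SE 0.54). A single wild type library lay above the lowest IPMK cKO library.

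The 3 relatives of bacterial S18 had estimates of both signs. Mrps18a, placed in the large subunit by human structures, had 40.9, 17.4 and 31.5 CPM in IPMK cKO, against 11.7, 17.6 and 9.36 CPM in wild type (+1.22, SE 0.64, edgeR unadjusted p = 0.0850). IPMK cKO replicate 2 lay just under wild type replicate 2, so the groups overlapped. Mrps18b had 41.8, 4.44 and 18.4 CPM in IPMK cKO, against 3.49, 8.20 and 8.94 CPM in wild type (+1.64, SE 0.96). Mrps18c had 2.67, 12.7 and 7.61 CPM in IPMK cKO, against 20.5, 9.29 and 10.6 CPM in wild type (−0.81, SE 1.0). In IPMK cKO replicate 1, Mrps18a and Mrps18b had their highest and Mrps18c its lowest value. Mrps30, whose protein sits in the large subunit, had 25.2, 47.7 and 51.6 CPM in IPMK cKO, against 29.7, 35.7 and 52.8 CPM in wild type (+0.07, SE 0.47). Mrps36, reported in mammals as a subunit of the oxoglutarate dehydrogenase complex, had 14.4, 9.41 and 10.4 CPM in IPMK cKO, against 8.66, 6.56 and 9.78 CPM in wild type (+0.45, SE 0.95). GENCODE M21 names pseudogenes of Mrpl23, Mrpl48 and Mrps36, with which tags of these genes may be shared.

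Other members with the smallest p-values were on both sides of 0. Mrpl30, the counterpart of bacterial L30, had 85.4, 34.4 and 49.4 CPM in IPMK cKO, against 38.1, 29.7 and 22.5 CPM in wild type (+0.91, SE 0.48). Mrpl49, a large subunit protein without a bacterial counterpart, had 25.8, 17.9 and 21.1 CPM in IPMK cKO, against 64.3, 38.5 and 23.9 CPM in wild type (−0.97, SE 0.53). Mrpl20 had 31.4, 26.8 and 13.7 CPM in IPMK cKO, against 44.6, 30.1 and 51.2 CPM in wild type (−0.81, SE 0.52). In each of these 3 genes a single pair of libraries crossed. Mrpl1, whose bacterial counterpart forms the stalk beside the exit of spent tRNA, had 3, 98 and 14 counts in IPMK cKO, against 312, 127 and 88 counts in wild type (−2.13, SE 1.22). Its estimate was −4.52 when IPMK cKO replicate 2 was left out and −0.90 when both libraries numbered 1 were. Mrpl36, one of the shortest ribosomal proteins, had 26.3, 13.8 and 26.9 CPM in IPMK cKO, against 45.0, 21.2 and 37.2 CPM in wild type (−0.62, SE 0.56). The ratio of highest to lowest library was largest for Mrps28, whose lowest value is the 0 given above, and for Mrpl10. Mrps28 had 0, 37 and 51 counts in IPMK cKO, against 86, 46 and 17 counts in wild type (−0.87, SE 1.86), and the groups overlapped. Next came Mrpl21, the counterpart of bacterial L21, with 1, 49 and 3 counts in IPMK cKO, against 121, 53 and 9 counts in wild type. Mrpl21 thus had low and high libraries in both groups. Of 12 genes of human mitochondrial disease in the family, 6 estimates were above 0 and 6 below (median +0.09).

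The spread of these genes followed their level and 1 library. Median biological coefficients of variation were 0.435 for the 26 most abundant genes (36.5 to 131 CPM), 0.551 for the next 26 (17.7 to 35.2 CPM) and 0.847 for the last 25 (4.74 to 16.9 CPM). Over the 77 genes the median was 0.578, against 0.605 for all genes tested. IPMK cKO replicate 1 held the highest value of the 6 libraries for 34 genes (44.2%, against 29.2% of all genes tested) and the lowest for 24 (31.2%, against 34.7%). It was over 4-fold below the median of the other libraries for 13 genes (16.9%, against 22.3% of all genes tested) and over 4-fold above it for 4 (5.19%, against 6.00%). In the other 5 libraries, 0 to 4 genes were that far below and 0 to 2 that far above. Besides Mrpl10, Mrpl1 and Mrps28, the genes with few counts in IPMK cKO replicate 1 included Mrps10 with 1 count, Mrpl21 with 1, Mrpl55 with 2, Mrps7 with 6 and Mrpl27 with 7. Of the 31 values over 4-fold from the other libraries, 26 were of the 25 least abundant genes, and Mrpl10 and Mrpl16 were the exceptions among the 26 most abundant genes.

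Across the 77 genes, Pearson correlations of log2 levels between pairs of libraries were 0.593 to 0.686 within IPMK cKO, 0.689 to 0.791 within wild type and 0.494 to 0.824 between the groups. The pair with the highest value was IPMK cKO replicate 2 and wild type replicate 2, and the pair with the lowest was IPMK cKO replicate 1 and wild type replicate 1. These describe genes within libraries, which are not independent replicates. Over all genes tested the ranges were 0.750 to 0.857 within IPMK cKO, 0.851 to 0.906 within wild type and 0.740 to 0.918 between the groups.

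**Figure D5:**
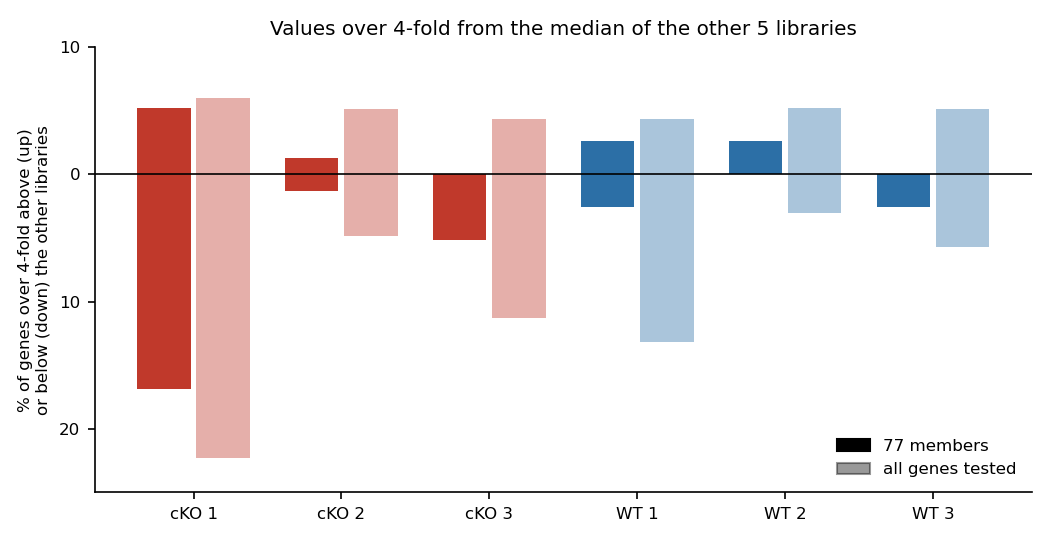
Percent of genes whose CPM was over 4-fold above (bars up) or below (bars down) the median of the other 5 libraries, for the 77 genes (dark bars) and all genes tested (pale bars), by library. IPMK cKO replicate 1 reaches 16.9% below for the 77 genes and 22.3% for all genes tested.

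The pathway around these genes was described from lists of genes. Of 6 mitochondrial ribosomal proteins found under other symbols, 0 passed, with 4 estimates above 0 and 2 below (median +0.17). Dap3, a GTP-binding protein of the small subunit head, had 195, 82.3 and 114 CPM in IPMK cKO, against 105, 56.8 and 35.8 CPM in wild type (+0.99, SE 0.46). Chchd1, another small subunit protein, had 34.5, 41.0 and 76.3 CPM in IPMK cKO, against 96.1, 82.7 and 72.6 CPM in wild type (−0.73, SE 0.40). In both, 1 IPMK cKO library lay among the wild type values. Of 12 tested mitochondrial translation factors, 5 estimates were above 0 and 7 below (median −0.15). The initiation factor Mtif2 had 18.3, 61.9 and 48.7 CPM in IPMK cKO, against 96.1, 55.6 and 54.9 CPM in wild type (−0.68, SE 0.49). Mtfmt, which formylates the initiator tRNA, had 11.1, 31.4 and 15.5 CPM in IPMK cKO, against 4.09, 23.6 and 7.28 CPM in wild type (+0.73, SE 0.87).

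Genes listed as factors that assemble the mitochondrial ribosome or modify its RNA had 8 estimates above 0 and 16 below among 24 tested. Their median was −0.27, and 0 were called. The list also named Nsun3 and Yars2, which act on mitochondrial tRNA. In this list 3 genes, Mtg1, Mettl17 and Rpusd4, had all 3 IPMK cKO libraries below all 3 of wild type, as had 5.66% of all genes tested. Mtg1, a GTPase of large subunit assembly, had 0, 18 and 0 counts in IPMK cKO, against 282, 44 and 152 counts in wild type (edgeR unadjusted p = 0.0282, adjusted p = 0.9999). Mettl17, a factor of small subunit assembly, had 7.60, 15.9 and 17.0 CPM in IPMK cKO, against 52.6, 21.3 and 23.3 CPM in wild type (−1.26, SE 0.65). Genes listed for mitochondrial transcription, RNA maturation and, in part, DNA replication had 5 estimates above 0 and 13 below among 18 tested (median −0.22). Among them were 5 whose IPMK cKO libraries all lay below those of wild type and 0 whose libraries lay above. Of all genes tested, 5.66% and 4.74% did so. These 5 were Tfam, Tfb2m, Trmt10c, Polg and Fastkd5, of which Polg is a gene of DNA replication. Tfam, which packages mitochondrial DNA and starts its transcription, had 29.3, 40.1 and 47.8 CPM in IPMK cKO, against 88.2, 50.3 and 57.6 CPM in wild type (−0.74, SE 0.41). Pnpt1, an RNA-degrading enzyme of mitochondria, had 9.57, 7.32 and 3.04 CPM in IPMK cKO, against 42.1, 7.65 and 24.7 CPM in wild type (−1.90, SE 0.87). Replicate 2 of wild type lay among the IPMK cKO libraries, so the groups overlapped. Of 9 tested regulators of nuclear genes for mitochondria, 2 estimates were above 0 and 7 below (median −0.13), with 0 called. Those above were the nuclear receptor Esrra with 182, 66.5 and 126 CPM in IPMK cKO, against 108, 98.5 and 95.8 CPM in wild type (+0.31, SE 0.38), and the coactivator Ppargc1b (+0.32, SE 0.51).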

How the data were processed

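RNA from sorted splenic Treg was made into 3′-tag libraries with the Lexogen QuantSeq kit, per the labels' protocols. For each of the 6 libraries the authors deposited raw counts per gene symbol, whole numbers without normalization as the values show. Per the submitters' processing notes, the tools named are edgeR and Bowtie2, and the builds hg19 and mm10, none with a role or version. What counted the tags, on which annotation and with which strand setting, the sources used here do not say.

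All genes were fitted together in R 4.3.3 with edgeR 4.0.16, after TMM scaling and filterByExpr, which kept 10475 genes at its minimum of 10 counts. The quasi-likelihood test of IPMK cKO over wild type was adjusted by Benjamini-Hochberg over all of them, with a threshold of 0.05. Dividing an estimate by the root of its F value gave the SE. CPM use TMM-scaled sizes, and correlations use log2 of CPM plus 2. Equal-weight means use edgeR's log2 CPM with a prior of 2 counts. Alternatives were DESeq2 1.42.0, limma-voom (limma 3.58.1), other scalings and filters, the replicate number as a block and leaving out libraries. The procedure was tested on simulated data.

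The members and lists were chosen with earlier results of these data known. Named were the 6 members with the smallest p in each direction, the 4 most abundant of each subunit, 12 fixed by role, the 2 with the largest and the 2 with the smallest spread between libraries, and 2 genes per pathway list by p. Spread was the ratio of highest to lowest library. Members with groups that did not overlap, Mrpl21, those low in IPMK cKO replicate 1, a head to head pair and the largest differences in CPM were named after their values were seen. Positions are from GENCODE M21 on mm10 and promoters from RefSeq on GRCm38.p6. The floor of 3 counts covers counting error alone, because tags are not known to carry molecular identifiers.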

Additional observations from a re-analysis of the deposited data

How the results depend on the processing

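Under 15 alternative settings none of the 77 genes was called. At an unadjusted p under 0.05 the count was 1 with limma-voom (Mrpl10), 1 with no filter on low counts (Mrps23) and 1 without both libraries numbered 1 (Mrps17). Of all genes tested, 164 were higher and 256 lower of 10475 with limma-voom. These were 336 and 231 of 14404 with no filter, and 118 and 199 of 10913 without both libraries numbered 1. With single libraries left out the count was 0 to 6, the 6 without IPMK cKO replicate 2 (Mrpl30, Mrps23, Mrpl32, Mrps18b, Mrpl1 and Mrps33). In that setting 278 of 10966 genes tested were higher and 404 lower at the same threshold. Genes whose groups did not overlap numbered 13 to 28 with a library left out, where the smaller groups separate more often, and 24 without both libraries numbered 1. As shares these were 16.9% to 36.4% against 16.4% to 24.4% of all genes tested, and 31.2% against 32%. The 36.4% came without IPMK cKO replicate 2. Library totals without scaling moved the median of all genes to −0.17 and gave 0 higher and 8 lower genes without overlap. In either direction these were 10.4% of the 77, against 10.3% of all genes tested.

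The median log2 fold change of the large subunit was −0.28 to 0.12 with single libraries left out, and that of the small subunit was −0.087 with limma-voom and −0.12 with the replicate number as a block. Between libraries numbered alike, correlations of deviations from the group mean were 0.0454, 0.0877 and 0.0265. With 3 libraries per group these cannot show whether the numbers pair the libraries. The shares of both subunits had the same order of replicate numbers in the 2 groups. With the replicate block 0 genes were called.

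Of the 465 values of named genes, 31 changed sign, and the cause was not tested. With IPMK cKO replicate 1 left out, and then with both libraries numbered 1 left out, the values were −0.455 and −0.425 for Mrpl11, −0.359 and −0.352 for Mrpl12, −0.182 and −0.257 for Mrpl18, −0.632 and −0.655 for Mrpl34, −0.169 and −0.612 for Mrpl44 and 0.000269 and 0.00492 for Mrpl45. Without both libraries numbered 1 they were also 0.0865 for Mrpl38, 0.0259 for Mrps18c and 0.313 for Mrps28. With library totals they were −0.112 for Mrpl18, −0.247 for Mrpl34, −0.000538 for Mrpl52 and −0.0903 for Mrps30. With limma-voom they were −0.16 for Mrpl34 and −0.722 for Mrpl44, and with the replicate block −0.117 for Mrpl34. With other single libraries left out they were −0.108 for Mrpl34, 0.0138 for Mrpl38, −0.0336 for Mrpl44, 0.00653 and 0.00705 for Mrps25 and −0.112 to −0.00258 for Mrps30 (−0.0936 and −0.0563 between them). The highest values of the same genes with a library left out were 0.684 for Mrpl11, 1.22 for Mrpl12, 0.375 for Mrpl18, 0.288 for Mrpl34, 0.967 for Mrpl44 and 0.342 for Mrps30, and the lowest were −0.207 for Mrpl38, −0.548 for Mrpl45 and −0.330 for Mrps25. The difference of the large to small ratio, IPMK cKO minus wild type, was −0.306 to −0.165 with a library left out, against −0.235 with all. The spread between 3 libraries of a group, with a median SE of 0.64, limits what these data can separate.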
